A study of Mus musculus with 16 samples.

Results

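Ribosome biogenesis genes encode the machinery that transcribes ribosomal RNA, modifies and cuts it, and assembles it with ribosomal proteins into subunits. The set held 41 named mouse genes, and its members were the probe sets that the platform annotation assigns to these symbols. Of the 41 genes, 39 had a probe set of their own and were tested, among 13913 genes tested in all. Npm3 had no probe set under its symbol. Mrto4 had only a probe set shared with pseudogene copies, which was not used. The 39 genes had 77 probe sets, of which 74 passed the filter on dim values, and each gene was read from its brightest one.

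RNA came from smooth muscle cells grown from mouse aortas, either wild type or without Hey2, a repressor that acts downstream of Notch. The cells were released by digestion from aortas freed of adventitia, stained for smooth muscle alpha actin and calponin as a purity check, and used at passage 10 to 20. Both genotypes had a mixed background of C57BL/6 and 129SvJ. Cultures were kept for 48 h in 0.4% FCS and then given PDGF-BB, a growth factor that drives smooth muscle cells to divide and migrate, at 5 ng/ml. There was 1 Affymetrix array for each genotype at 0, 15, 30, 60, 120, 180, 240 and 480 min, 16 in all. The labels give neither the number of animals nor the number of isolates behind a genotype, and the 0 min arrays carry the PDGF label too. The growth protocol also names medium without PDGF, but untreated cultures were not analysed here, and PDGF and time in fresh medium cannot be told apart. The series was designed to find transcripts that differ between the genotypes during this response.

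Ribosome production starts in the nucleolus, where RNA polymerase I copies the ribosomal DNA repeats. Small nucleolar ribonucleoproteins (snoRNPs) then guide methylation and pseudouridylation of the transcript, and separate sets of assembly factors build the small and the large subunit. The pathway is a main consumer of energy in growing cells and is turned up when resting cells enter the cell cycle. The transcription factor Myc is a known activator of many of its genes.

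The comparisons used the means of 3 early times (0, 15 and 30 min) and 3 late times (120, 180 and 240 min), which gave 12 arrays in 4 cells of genotype and phase. Values are quantile-normalized signals, and differences are on the scale log2(signal + 4.856), which understates changes of dim genes. A difference is called when its limma adjusted p, taken over all 13913 genes, is under 0.05. In the late against early tests the error is the spread between the time points of a phase. Between genotypes and in the interaction it is the spread of the genotype difference between those time points. Part of either spread may be technical, and precision is limited by how few arrays there are. Signals of different probe sets are not comparable with each other. In bulk RNA, fewer cells of a type and less RNA per cell cannot be told apart.

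Hey2 itself, the targeted gene, had a single probe set, and its signal was not absent from the knockout. Wild-type Hey2 signals were 101, 102 and 113 at 0, 15 and 30 min and 14.0, 19.3 and 16.6 at 120, 180 and 240 min, with 16.1 and 75.2 in the libraries labelled 60 and 480 min. Knockout Hey2 signals were 34.3, 63.3 and 42.2 at 0, 15 and 30 min and 23.3, 34.8 and 41.04 at 120, 180 and 240 min, with 28.2 and 31.6 in the libraries labelled 60 and 480 min. Knockout signals lay below every wild-type one early, by -1.14 (SE 0.24, limma adjusted p = 0.0023), and above every wild-type one late, by 0.80 (SE 0.24, limma adjusted p = 0.019). The labels do not say whether this probe set lies in the deleted part, so it does not check the genotype labels, and genotype here means the label.

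Before any result, 2 wild-type libraries went against the order of their labels, so the 60 and 480 min arrays of both genotypes were kept out of these means. The library labelled wild type 60 min resembled the knockout 480 min library (r = 0.59 across genes) more than the knockout 60 min library (r = -0.34). The one labelled wild type 480 min resembled the knockout 60 min library (r = 0.48) more than the knockout 480 min library (r = -0.40). At the other 6 times the 2 genotypes correlated at 0.40 to 0.54. Labels were kept as given, and the counts over all members and over the other pathway genes are also given with all 16 arrays as labelled. In that fit the arrays labelled 60 min were counted as early and those labelled 480 min as late. Overall signal varied too, with a 2% trimmed mean of the deposited signal from 80.6 to 342.3 per array.

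Cell type markers differed between the genotypes. The 10 smooth muscle markers were all above the filter in the wild type and 9 of them in the knockout, with summed signals of 12650 to 17130 and 6582 to 9667. Among the defining contractile genes, Acta2 ran from 8217 to 9638 in the wild type and from 5203 to 6660 in the knockout, while Myh11 was dim, at most 39.0 on any array. The 9 mesothelial markers, all above the filter in both genotypes, summed to 1102 to 2338 in the wild type and 12710 to 15010 in the knockout. Endothelial markers were near the filter level (3 of 8 above it in the wild type and 2 of 8 in the knockout, sums of 50.6 to 124.1 and 63.2 to 105.9), and Pecam1 never exceeded 11.6. Leukocyte markers (4 of 7 with a probe set above the filter in either genotype) summed to 95.4 to 417.5 and 132.1 to 808.2, in which Csf1r ran from 23.25 to 332.7 and from 44.4 to 746.6, and Ptprc reached at most 21.0. The 7 adventitial fibroblast markers summed to 568.7 to 3535 and 595.6 to 848.7, with 5 and 6 above the filter.

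In wild-type cells the ribosome biogenesis genes rose between the early and the late times. Of 39 members, 35 were higher late, 1 was lower and 3 were not called, where 15.7% of all genes tested were called higher and 22.6% lower. The median member difference was 1.21 on the log2 scale, against -0.07 for all genes. In 36 members every late wild-type signal lay above every early one, and 26 members rose at least 2-fold. In the knockout cells 30 members were higher late, 1 was lower and 8 were not called, against 8.95% higher and 10.9% lower among all genes. Their median difference was 0.998, against -0.08 for all genes, in 34 members every late signal lay above every early one, and 19 rose at least 2-fold. The share of all genes without overlap or with a 2-fold rise was not counted in either genotype, so these member counts have no background. With arrays left at their deposited scaling the medians were 1.54 and 1.25, where all genes shifted by 0.16 and 0.15, and the counts of risen members were 24 and 9.

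With all 16 arrays as labelled, 0 members were called higher late in the wild type, against 1.25% of genes, and 1 in the knockout, against 0.35%. The medians in that fit were 0.49 and 1.08. Tsr1 was that member. In the 12-array fit 30 members rose in both genotypes, and Polr1a, Ubtf, Dkc1, Utp20 and Imp4 passed the threshold in the wild type and missed it in the knockout. For these 5 the interaction test, which asks whether the rise differed, made no call. These are results of the brightest probe sets, and calls were not made on further ones. In the knockout the further probe sets had differences of 1.07 and 0.73 for Polr1a, 1.04 and 1.03 for Dkc1, 0.18 and 0.56 for Imp4 and 0.90 for Ubtf. Across the 39 members the wild-type and knockout differences, which share no arrays but are on the same platform and probe sets, correlated at r = 0.946 (Spearman rho = 0.913). RNA quality moved with phase. The Actb 3'/5' signal ratio was 2.41 to 3.88 early and 1.53 to 1.84 late in the wild type, and 1.95 to 3.71 and 1.54 to 2.44 in the knockout. The Gapdh ratio was 3.22 to 4.49 and 2.59 to 3.22 in the wild type, and 3.19 to 5.65 and 2.44 to 4.64 in the knockout, and the part of RNA quality in the rise was not tested. Cell type markers moved with phase as well. Of the 10 smooth muscle markers, 7 were called higher late in the wild type (median 0.55) and 4 in the knockout (median 0.23), and none lower. Of 9 mesothelial markers, 3 were higher late in each genotype, and 0 and 1 were lower. Of 4 tested leukocyte markers 1 was higher in each genotype, and of 6 tested adventitial fibroblast markers 1 was higher and 2 were lower in the wild type and 0 and 1 in the knockout. Of 3 tested endothelial markers 1 was higher in the wild type and 0 in the knockout. Their part in the rise was not tested.

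**Figure D1:**
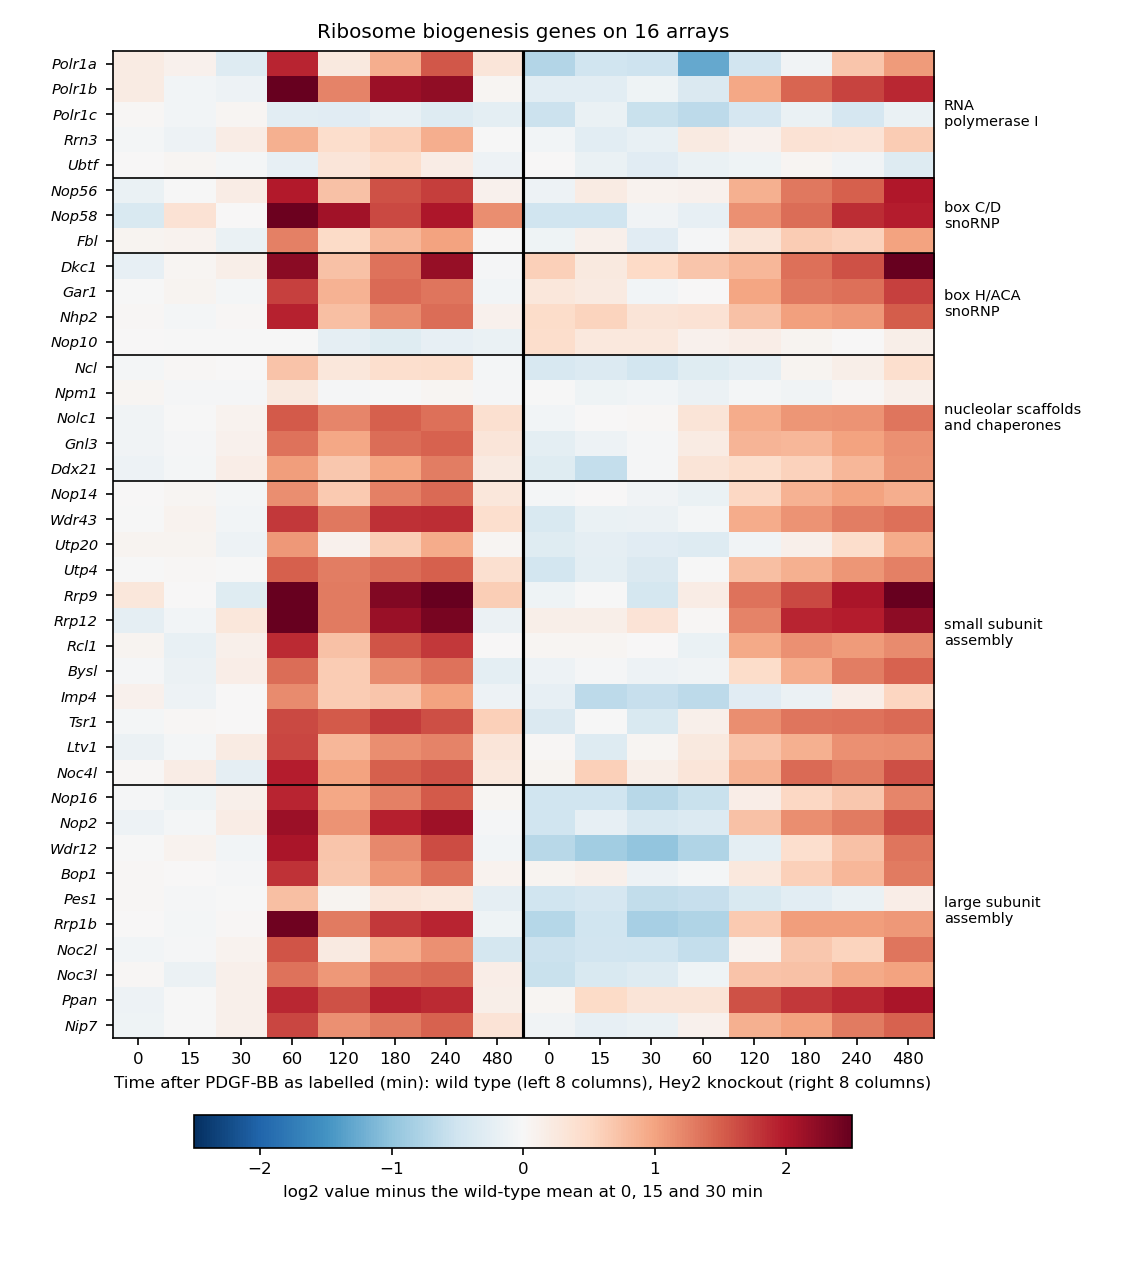
Log2 value of each of the 39 tested members (rows, grouped by role) on the 16 arrays (columns, by genotype and labelled time in min), minus the gene's wild-type mean at 0, 15 and 30 min, with red above and blue below. Most members turn red at 120 to 240 min in both genotypes, and the columns labelled wild type 60 and 480 min break the time order.

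The rise was spread over the late times. Relative to 0 min, the median member in the wild type stood at 0.03 at 15 min, 0.04 at 30 min, 0.88 at 120 min, 1.30 at 180 min and 1.41 at 240 min. In the knockout the same median was 0.07, -0.02, 0.69, 1.03 and 1.17, and it was 0.03 at 60 min and 1.54 at 480 min. The libraries labelled wild type 60 and 480 min stood at 1.69 and 0.07. Over all genes tested, the median relative to 0 min lay between -0.10 and 0.01 on every array. In the knockout 38 of 39 members were higher at 120 than at 30 min, and 37 of 39 members were higher at 480 than at 240 min. From 120 to 180 and again to 240 min the signal went up at each step in 30 members in the wild type and 29 in the knockout. These step counts have no background, since the same steps were not counted over all genes.

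Myc, the transcription factor that activates many of these genes, was already higher at 30 min. Myc signals in the wild type were 496, 605 and 1161 at 0, 15 and 30 min and 2634, 3307 and 3445 at 120, 180 and 240 min, with 2457 and 3750 in the libraries labelled 60 and 480 min. In the knockout they were 368, 367 and 769 at 0, 15 and 30 min and 1321, 1428 and 1893 at 120, 180 and 240 min, with 2070 and 1284 in the libraries labelled 60 and 480 min. Myc thus rose in both genotypes, by 2.14 (SE 0.30, limma adjusted p = 0.00012) and 1.69 (SE 0.30, limma adjusted p = 0.0018), and at 30 min it stood above its 0 min signal in both, when the members' median stood at 0.04 and -0.02. Knockout Myc was lower by -0.58 early and -1.02 late, with limma adjusted p = 0.00022 and 1.7e-06. Myc and its partner Max bind the E-box CACGTG, a palindrome that reads alike on both strands.

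RefSeq promoters (build GRCm38.p6, 250 bases before to 50 after the annotated start) were found for 37 of the 41 genes, and CACGTG lay in 9 of them, or 24.3%. The share was 14.7% of 95 promoters of other pathway genes, 10.3% of 58 genes of cytosolic ribosomal proteins and 11.3% of 11180 genes tested. Of these 9 members, 8 rose in the wild type and 6 in the knockout, with median differences of 1.08 and 0.998. Of 26 tested members with a promoter and no match, 24 and 21 rose, with medians of 1.27 and 1.01. Upstream of the start the match lay in Rrn3, Imp4 and Nop2, which stand for polymerase recruitment, small subunit and large subunit. These windows are shown with the E-box in capitals and with the position of its first base relative to the start.
Rrn3 at -215, chr16:13780449-13780526, plus strand: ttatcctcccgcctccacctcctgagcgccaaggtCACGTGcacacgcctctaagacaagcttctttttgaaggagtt
Rrn3 at -48, chr16:13780614-13780693, plus strand: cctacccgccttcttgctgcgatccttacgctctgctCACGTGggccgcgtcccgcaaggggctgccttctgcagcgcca
Imp4 at -121, chr1:34439671-34439750, plus strand: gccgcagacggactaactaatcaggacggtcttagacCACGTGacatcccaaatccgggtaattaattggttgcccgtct
Nop2 at -60, chr6:125131786-125131865, plus strand: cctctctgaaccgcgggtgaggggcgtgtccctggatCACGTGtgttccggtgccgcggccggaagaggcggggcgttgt
In the other 6 members (Utp4, Wdr43, Tsr1, Pes1, Ltv1 and Utp20) the match began 3 to 38 bases after the start. A match of letters is a description of the window, and binding was not measured.

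Members of the RNA polymerase I group, 5 in all, rose in 4 cases in the wild type and 2 in the knockout. The largest change was that of Polr1b, the second-largest subunit of the polymerase. Polr1b signals in the wild type were 134, 109.8 and 106 at 0, 15 and 30 min and 278, 526 and 554 at 120, 180 and 240 min, with 680.4 and 120.0 in the libraries labelled 60 and 480 min. In knockout cells Polr1b measured 96.3, 95.9 and 108 at 0, 15 and 30 min and 229.7, 327 and 382 at 120, 180 and 240 min, with 89.2 and 444 in the libraries labelled 60 and 480 min. Early and late signals did not overlap in either genotype, and the differences were 1.86 (SE 0.24, limma adjusted p = 5.5e-05) and 1.57 (SE 0.24, limma adjusted p = 0.00057). Polr1a, the largest catalytic subunit, ran from 154 to 225 early and 230.1 to 582 late in the wild type and from 116 to 136 early and 139 to 316 late in the knockout, with differences of 0.90 (SE 0.31, limma adjusted p = 0.035) and 0.62 (SE 0.31, limma adjusted p = 0.18). Rrn3, which carries the polymerase to the promoter and holds a pair of upstream E-boxes, rose by 0.64 and 0.44 (limma adjusted p = 0.0028 and 0.042). Ubtf, which shapes ribosomal DNA chromatin, rose by 0.31 in the wild type (limma adjusted p = 0.039) and changed by 0.09 in the knockout (limma adjusted p = 0.60). Polr1c, a subunit that RNA polymerase I shares with RNA polymerase III, stood outside this pattern on its brightest probe set. Its wild-type signals were 1334, 1247 and 1370 at 0, 15 and 30 min and 1085, 1157 and 1055 at 120, 180 and 240 min, with 1098 and 1117 in the libraries labelled 60 and 480 min. Polr1c in the knockout gave 911, 1171 and 897 at 0, 15 and 30 min and 977, 1167 and 986 at 120, 180 and 240 min, with 834 and 1166 in the libraries labelled 60 and 480 min. The late wild-type signals all lay below the early ones and the knockout signals overlapped, but neither difference passed the test, with -0.26 (SE 0.11, limma adjusted p = 0.087) and 0.08 (SE 0.11, limma adjusted p = 0.69). The other probe set of Polr1c (mean log2 value 9.325 against 10.09) had positive differences, 0.13 in the wild type and 0.33 in the knockout.

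The box C/D snoRNP proteins, which guide ribose methylation of ribosomal RNA, rose in all 3 members measured and in both genotypes. Nop58, a core scaffold protein, changed most in this group. Nop58 signals in the wild type were 218, 366 and 288 at 0, 15 and 30 min and 1237, 905 and 1168 at 120, 180 and 240 min, with 1583 and 647 in the libraries labelled 60 and 480 min. In the knockout Nop58 gave 201, 199 and 268 at 0, 15 and 30 min and 636, 762 and 1037 at 120, 180 and 240 min, with 248 and 1118 in the libraries labelled 60 and 480 min. All late signals exceeded all early ones, by 1.92 (SE 0.21, limma adjusted p = 1.5e-05) and 1.83 (SE 0.21, limma adjusted p = 6.4e-05). Its partner Nop56 rose from 876 to 1128 early and 1642 to 3272 late in the wild type, a difference of 1.35, and by 1.17 in the knockout. Fbl, the methyltransferase fibrillarin, had the smallest change of the 3. Fbl signals in the wild type were 1793, 1815 and 1513 at 0, 15 and 30 min and 2380, 3032 and 3442 at 120, 180 and 240 min, with 4097 and 1687 in the libraries labelled 60 and 480 min. Knockout signals of Fbl were 1580, 1865 and 1388 at 0, 15 and 30 min and 2129, 2651 and 2555 at 120, 180 and 240 min, with 1670 and 3432 in the libraries labelled 60 and 480 min. They did not overlap between phases, and the differences were 0.78 (SE 0.14, limma adjusted p = 0.00074) and 0.60 (SE 0.14, limma adjusted p = 0.0089).

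The 4 box H/ACA snoRNP proteins, which guide pseudouridylation and also belong to telomerase, split. Dkc1, Gar1 and Nhp2 rose in the wild type, Gar1 and Nhp2 in the knockout, and Nop10 fell in both. Gar1 wild-type signals were 505, 531 and 488 at 0, 15 and 30 min and 933, 1372 and 1286 at 120, 180 and 240 min, with 1665 and 487 in the libraries labelled 60 and 480 min. Gar1 in the knockout measured 619.6, 594 and 483 at 0, 15 and 30 min and 1016, 1268 and 1330 at 120, 180 and 240 min, with 514 and 1680 in the libraries labelled 60 and 480 min. These did not overlap, with differences of 1.21 (SE 0.15, limma adjusted p = 4.3e-05) and 1.08 (SE 0.15, limma adjusted p = 0.00029). On its brightest probe set Dkc1, the pseudouridine synthase dyskerin, rose by 1.42 in the wild type (limma adjusted p = 0.0015) and by 0.82 in the knockout without passing the test (limma adjusted p = 0.059). Nhp2, an RNA-binding partner of dyskerin, was lower in the wild type early, and its late difference between genotypes was not called. Its wild-type signals were 1463, 1383 and 1465 at 0, 15 and 30 min and 2416, 3257 and 3771 at 120, 180 and 240 min, with 5444 and 1540 in the libraries labelled 60 and 480 min. Nhp2 in the knockout gave 1974, 2109 and 1791 at 0, 15 and 30 min and 2399, 2924 and 3034 at 120, 180 and 240 min, with 1855 and 4130 in the libraries labelled 60 and 480 min. Early signals were higher in the knockout at every time, late signals were lower at every time, and the rises were 1.11 (SE 0.14, limma adjusted p = 3.7e-05) and 0.50 (SE 0.14, limma adjusted p = 0.019). Nop10, another core partner, was the exception in direction. Wild-type Nop10 signals were 3572, 3517 and 3510 at 0, 15 and 30 min and 3011, 2882 and 3068 at 120, 180 and 240 min, with 3488 and 3130 in the libraries labelled 60 and 480 min. Knockout Nop10 signals were 4819, 4222 and 4230 at 0, 15 and 30 min and 3954, 3690 and 3552 at 120, 180 and 240 min, with 3804 and 3908 in the libraries labelled 60 and 480 min. All late signals lay below the early ones of the same genotype, by -0.24 (SE 0.07, limma adjusted p = 0.011) and -0.24 (SE 0.07, limma adjusted p = 0.021). With arrays at their deposited scaling the differences of Nop10 turned to 0.11 and 0.03 and were not called, where all genes shifted by 0.16 and 0.15. Without the 180 min arrays the wild-type fall of Nop10 was not called (limma adjusted p = 0.061), nor was the knockout fall without the 0, 180 or 240 min arrays (limma adjusted p = 0.14, 0.078 and 0.069).

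Among nucleolar scaffolds and chaperones, 4 of 5 tested members rose in each genotype. Nolc1, a chaperone that binds snoRNPs, rose most on the brightest probe sets, though a dimmer one of Ddx21 had wider differences of 1.95 and 1.49. Nolc1 signals in wild-type cells were 611, 640.2 and 689.9 at 0, 15 and 30 min and 1516, 1819 and 1693 at 120, 180 and 240 min, with 1872 and 857 in the libraries labelled 60 and 480 min. In the knockout Nolc1 measured 616, 651 and 658 at 0, 15 and 30 min and 1229, 1399 and 1414 at 120, 180 and 240 min, with 808 and 1641 in the libraries labelled 60 and 480 min. The phases did not overlap, with differences of 1.36 (SE 0.10, limma adjusted p = 4.0e-07) and 1.06 (SE 0.10, limma adjusted p = 1.3e-05). Gnl3, the GTPase nucleostemin, rose by 1.28 and 1.03, and Ddx21, an RNA helicase that links polymerase I transcription and processing, by 0.98 and 0.93. Ncl, the abundant nucleolar protein nucleolin, rose by 0.38 and 0.40 on its brightest probe set, from 4484 to 4700 early and 5605 to 6304 late in the wild type. Npm1, the histone and ribosome chaperone nucleophosmin, was not called. Wild-type Npm1 signals were 7360, 6987 and 7000 at 0, 15 and 30 min and 6932, 7070 and 7315 at 120, 180 and 240 min, with 8394 and 7000 in the libraries labelled 60 and 480 min. Knockout Npm1 signals were 7046, 6583 and 6760 at 0, 15 and 30 min and 6882, 6647 and 7242 at 120, 180 and 240 min, with 6431 and 7774 in the libraries labelled 60 and 480 min. The phases overlapped, with differences of -0.00 (SE 0.05, limma adjusted p = 0.98) and 0.03 (SE 0.05, limma adjusted p = 0.76).

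The small subunit assembly factors formed the largest group, and all 12 rose in the wild type and 10 in the knockout. Rrp9, a component of the snoRNP that starts processing of the small subunit RNA, had the largest wild-type rise of the 39 members on their brightest probe sets. The dimmer of the Bysl probe sets had a wider wild-type difference, 2.335, and 1.762 in the knockout. Rrp9 signals in the wild type were 116, 95.9 and 76.1 at 0, 15 and 30 min and 242, 492 and 655 at 120, 180 and 240 min, with 758 and 147 in the libraries labelled 60 and 480 min. The knockout gave Rrp9 signals of 87.2, 94.3 and 68.8 at 0, 15 and 30 min and 248, 307 and 403 at 120, 180 and 240 min, with 108 and 639.5 in the libraries labelled 60 and 480 min. No early signal reached the late ones, and the differences were 2.12 (SE 0.30, limma adjusted p = 0.00011) and 1.86 (SE 0.30, limma adjusted p = 0.00079). Rrp12, needed in yeast for export of both subunits, rose by 1.94 and 1.50. Wdr43 and Utp4, subunits of the early processome, rose by 1.66 and 1.34 and by 1.39 and 1.27. Tsr1, a late assembly factor with GTPase-like structure, rose by 1.63 (SE 0.10, limma adjusted p = 1.1e-07) and 1.54 (SE 0.10, limma adjusted p = 6.1e-07), the smallest adjusted p of the members. Noc4l, Rcl1 and Nop14, factors of the early small subunit precursor, rose by 1.36, 1.35 and 1.11 in the wild type and by 0.93, 1.01 and 0.84 in the knockout. Ltv1 and Bysl, which act late in maturation, rose by 1.08 and 1.06 in the wild type and by 0.998 and 0.97 in the knockout. Imp4, an early processome protein with an upstream E-box, rose by 0.78 in the wild type and changed by 0.39 in the knockout (limma adjusted p = 0.098) on its brightest probe set. Utp20, a scaffold of the processome, had the smallest mean difference of the group over both genotypes on the brightest probe sets. Utp20 signals in the wild type were 905, 899.9 and 783 at 0, 15 and 30 min and 927, 1319 and 1641 at 120, 180 and 240 min, with 1832 and 893 in the libraries labelled 60 and 480 min. In the knockout Utp20 gave 697, 732 and 707 at 0, 15 and 30 min and 808, 945 and 1174 at 120, 180 and 240 min, with 691 and 1643 in the libraries labelled 60 and 480 min. The phases did not overlap in either genotype, but the difference passed the test in the wild type (0.55 with SE 0.18, limma adjusted p = 0.025) and not in the knockout (0.44 with SE 0.18, limma adjusted p = 0.10).

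Of 10 tested large subunit assembly factors, 9 rose in each genotype. Ppan, a factor of early large subunit maturation, rose most by the mean of both genotypes. Ppan signals in the wild type were 115, 125 and 137 at 0, 15 and 30 min and 386, 491 and 470.3 at 120, 180 and 240 min, with 473 and 139 in the libraries labelled 60 and 480 min. Ppan in the knockout measured 131, 176 and 159 at 0, 15 and 30 min and 386, 438 and 477 at 120, 180 and 240 min, with 159 and 531 in the libraries labelled 60 and 480 min. The late signals were well above the early ones, by 1.79 (SE 0.15, limma adjusted p = 1.3e-06) and 1.46 (SE 0.15, limma adjusted p = 2.5e-05). Nop2, a ribosomal RNA methyltransferase with an upstream E-box, rose by 1.73 and 1.43, and Rrp1b by 1.66 and 1.59. Noc2l and Noc3l, which in yeast escort large subunit precursors through the nucleus, rose by 0.76 and 1.30 in the wild type and by 0.94 and 1.22 in the knockout. Nip7 and Nop16 rose by 1.31 and 1.25 in the wild type and by 1.21 and 1.01 in the knockout.

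Pes1, Bop1 and Wdr12 form a complex that matures the large subunit RNAs, and their brightest probe sets did not move alike. Wdr12 rose by 1.18 (SE 0.24, limma adjusted p = 0.0018) and 1.16 (SE 0.24, limma adjusted p = 0.0048). Bop1 signals in the wild type were 464, 457 and 450.5 at 0, 15 and 30 min and 729.5, 972 and 1188 at 120, 180 and 240 min, with 1602 and 484 in the libraries labelled 60 and 480 min. In the knockout Bop1 gave 476, 502 and 419.5 at 0, 15 and 30 min and 551, 695 and 817 at 120, 180 and 240 min, with 439 and 1130 in the libraries labelled 60 and 480 min. Early signals of the genotypes overlapped, late ones were lower in the knockout at each time, and the rises were 1.04 (SE 0.17, limma adjusted p = 0.00035) and 0.54 (SE 0.17, limma adjusted p = 0.039). Pes1 had the smallest change of the large subunit group on its brightest probe set. Pes1 signals in the wild type were 724, 701 and 712 at 0, 15 and 30 min and 742, 879 and 853 at 120, 180 and 240 min, with 1196 and 608 in the libraries labelled 60 and 480 min. Pes1 in the knockout gave 502, 534 and 461 at 0, 15 and 30 min and 544, 594 and 634 at 120, 180 and 240 min, with 474 and 795 in the libraries labelled 60 and 480 min. Every late signal lay above every early one, but the differences did not pass the test, with 0.21 (SE 0.11, limma adjusted p = 0.15) and 0.24 (SE 0.11, limma adjusted p = 0.13). The other probe set of Pes1 (mean log2 value 8.33 against 9.38) had wider differences of 0.70 in the wild type and 0.67 in the knockout. Dimmer ones had 0.77 and 0.20 for Bop1 and 0.99 and 0.91 for Wdr12, and calls were not made on further probe sets.

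**Figure D2:**
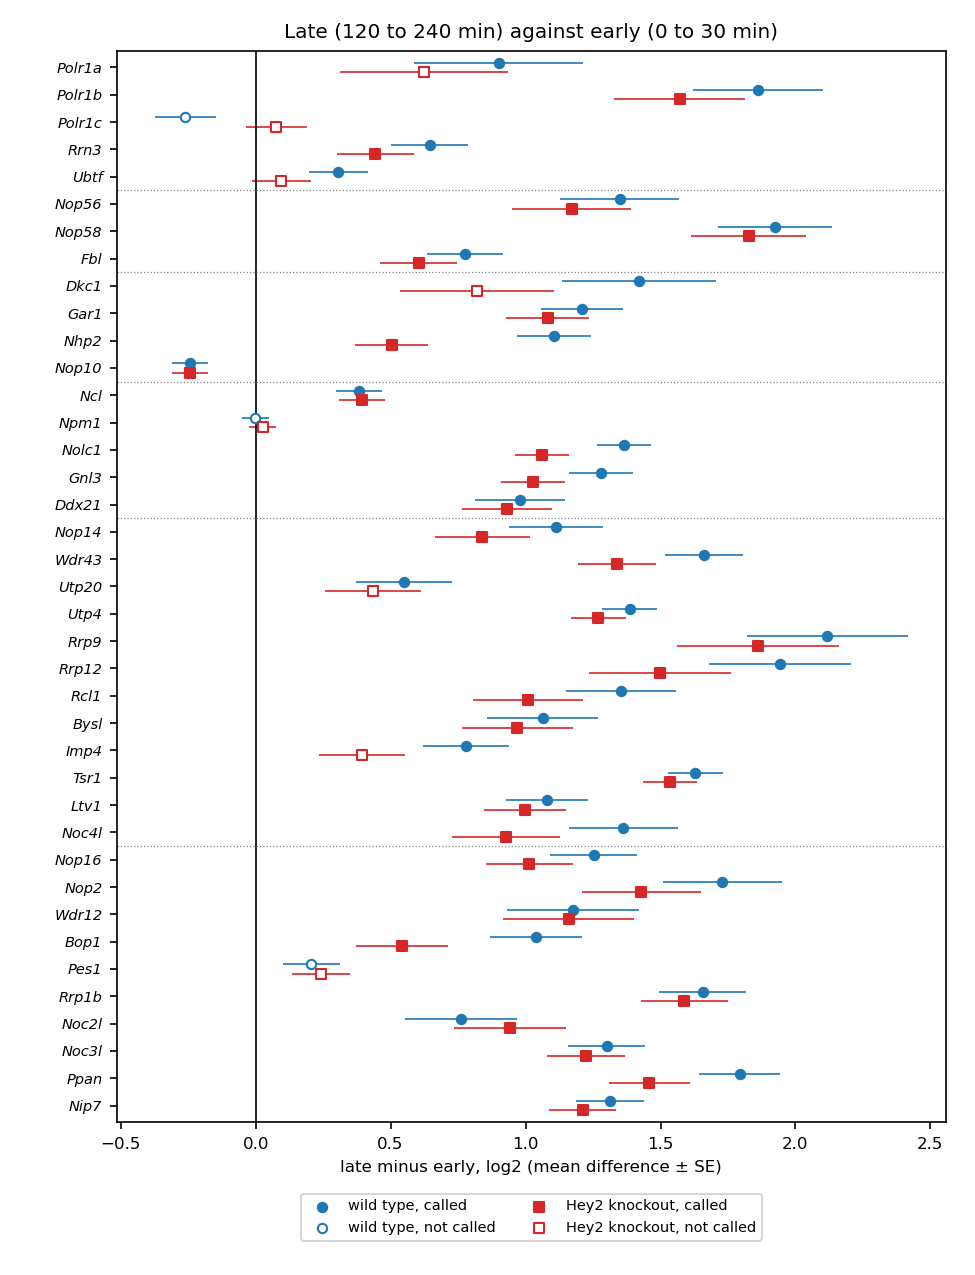
Late minus early difference (log2 scale, mean with SE) of the 39 tested members in the wild type (blue circles) and the knockout (red squares), in order of role, with filled symbols for called differences. Nearly all points lie right of 0, and 34 of 39 lie further right in the wild type (with all 16 arrays as labelled, 38 of 39 do so in the knockout). Nop10 is the called exception, whose direction turns at the deposited scaling, where all genes shift by 0.16 and 0.15.

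**Figure D3:**
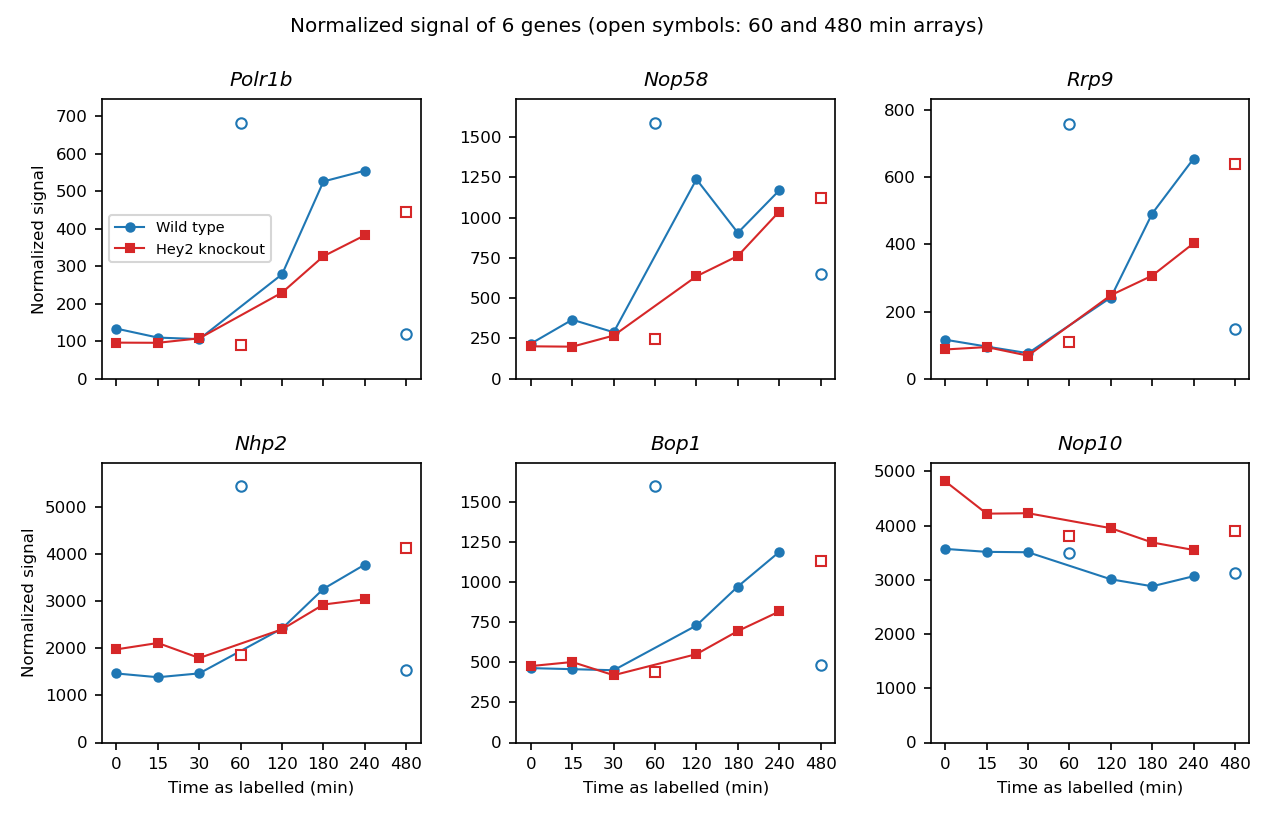
Normalized signal against labelled time in min for 6 members in the wild type (blue) and the knockout (red), 1 array a point, with the 60 and 480 min arrays as open symbols off the lines. On the lines, Polr1b, Nop58, Rrp9, Nhp2 and Bop1 lie higher at 120 to 240 min than at 0 to 30 min in both genotypes, and Nop10 declines from a higher level in the knockout at quantile-normalized values.

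Between the genotypes, more members were lower than higher in knockout cells in the normalized arrays. At 0 to 30 min 15 of 39 members were lower in the knockout and 3 were higher, against 18% and 18.2% of all genes. At 120 to 240 min 25 were lower and 1 was higher, against 17.5% and 19.2%. The median member differed by -0.18 early and -0.36 late, where all genes had -0.01 and -0.02, but at the deposited scaling these medians turned to 0.26 and 0.02 with 0 members called in either direction. At that scaling all genes shifted by 0.40 and 0.37, so the member medians relative to all genes were -0.14 and -0.36, close to the -0.16 and -0.34 of the normalized arrays. Lower signals in the knockout were seen at all 3 early times in 23 members, at all 3 late times in 31 and at all 6 times in 21. At any single one of these times 49% to 52.8% of all genes were lower in the knockout. The share of all genes lower at all 3 or all 6 times was not counted, so these member counts have no background. With all 16 arrays as labelled, 3 members were called lower early, against 9.16% of genes, and 0 late, against 8.2%. Those 3 were Polr1c, Ncl and Pes1.

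The counts leaned on single times. Without the 0 min arrays 9 members were called lower early in place of 15, and without the 180 min arrays 14 were called lower late in place of 25. The late comparison shares its arrays with the late side of each time comparison, and the early one with the early side. Cell type markers moved with genotype in the same arrays: 8 of 9 mesothelial markers were higher and 1 was lower in the knockout early, 7 and 1 late, and 8 and 9 of 10 smooth muscle markers were lower. The part of this difference in cell identity in the members' values was not tested.

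By role, the large subunit factors were lower in the knockout in 7 of 10 members early and 8 of 10 late. Wdr12 had the widest early difference of the members, with -0.85 (SE 0.11, limma adjusted p = 4.7e-05), and -0.87 (SE 0.11, limma adjusted p = 4.1e-05) late. Its signals in the 2 genotypes did not overlap early and overlapped late, at 274 to 306 early and 469 to 904 late in the wild type and 143 to 177 early and 243 to 487 late in the knockout. Rrp1b, Nop16 and Pes1 were lower by -0.68, -0.56 and -0.51 early and by -0.74, -0.80 and -0.48 late. Nop2 and Noc3l were lower in both phases too, by -0.36 and -0.42 early and -0.66 and -0.50 late, though their early differences turned positive at the deposited scaling. Noc2l was called early (-0.50) and not late (-0.32, limma adjusted p = 0.059). Bop1 and Nip7 were called late only, at -0.47 and -0.25, and Nip7 turned positive at the deposited scaling and as labelled. Ppan was called in neither phase, with 0.29 and -0.05.

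Of the small subunit factors, 4 of 12 were lower early and 7 late. Imp4 led them, with -0.48 (SE 0.10, limma adjusted p = 0.002) early and -0.87 (SE 0.10, limma adjusted p = 2.0e-05) late, from 389 to 457 early and 660.0 to 862 late in the wild type and 267 to 365 early and 347 to 478 late in the knockout. Utp4, Utp20 and Tsr1 were the others called in both phases, by -0.35, -0.27 and -0.25 early and -0.47, -0.39 and -0.34 late. At the deposited scaling the early differences of all 4 turned positive, as did the late one of Tsr1. Wdr43, Rrp9 and Nop14 were called late, by -0.55, -0.44 and -0.31, of which Nop14 turned at the deposited scaling and Rrp9 with all arrays as labelled. Rrp12, Rcl1, Bysl, Ltv1 and Noc4l were called in neither phase, with late differences of -0.23, -0.30, -0.18, -0.17 and -0.17. These values are from the brightest probe sets, and calls were not made on further ones. Further probe sets of Noc4l, nearly as bright, had wider late differences of -0.51, -0.56 and -0.35, and a dimmer one of Bysl had -0.425.

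The RNA polymerase I group was lower in 2 of 5 members early and 4 of 5 late. Polr1a, the catalytic subunit, differed by -0.58 (SE 0.15, limma adjusted p = 0.0072) early and -0.86 (SE 0.15, limma adjusted p = 0.0005) late, and its knockout signals lay below the wild-type ones at each of the 6 times. Polr1b, Rrn3 and Ubtf were called late, by -0.49, -0.38 and -0.36. Rrn3 and Ubtf turned positive at the deposited scaling, and Polr1b with all arrays as labelled. Polr1c was called early only, at -0.42 (SE 0.10, limma adjusted p = 0.005), and turned at the deposited scaling as well. Among the scaffolds, Ncl was lower by -0.40 and -0.39 and Ddx21 by -0.31 and -0.36, the latter positive in both phases at the deposited scaling. Nolc1 and Gnl3 were called late, by -0.31 and -0.39, and Nolc1 turned at the deposited scaling. Npm1 was called in neither phase on its brightest probe set, with -0.07 early and -0.04 late. Its other probe set, also bright (mean log2 value 12.07 against 12.79), had wider differences of -0.27 early and -0.36 late. Of the box C/D proteins, Nop58 and Fbl were lower late, by -0.46 (limma adjusted p = 0.047) and -0.26 (limma adjusted p = 0.013), and Fbl turned at the deposited scaling and as labelled. Nop56 was called in neither phase, with 0.06 and -0.12.

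Among the 4 box H/ACA proteins, 3 were higher in the knockout early and 1 late. Dkc1, Nhp2 and Nop10 were the 3 members that were higher in the knockout early, by 0.45 (SE 0.14, limma adjusted p = 0.026), 0.44 (SE 0.08, limma adjusted p = 0.00061) and 0.32 (SE 0.06, limma adjusted p = 0.00092). Late, Nop10 alone stayed higher, by 0.32 (SE 0.06, limma adjusted p = 0.00095), while Dkc1, Nhp2 and Gar1 differed by -0.15, -0.16 and 0.02 and were not called. Gar1 was not called early either (0.15, limma adjusted p = 0.24). With all arrays as labelled the early differences of Dkc1 and Nhp2 were -0.06 and -0.06.

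**Figure D4:**
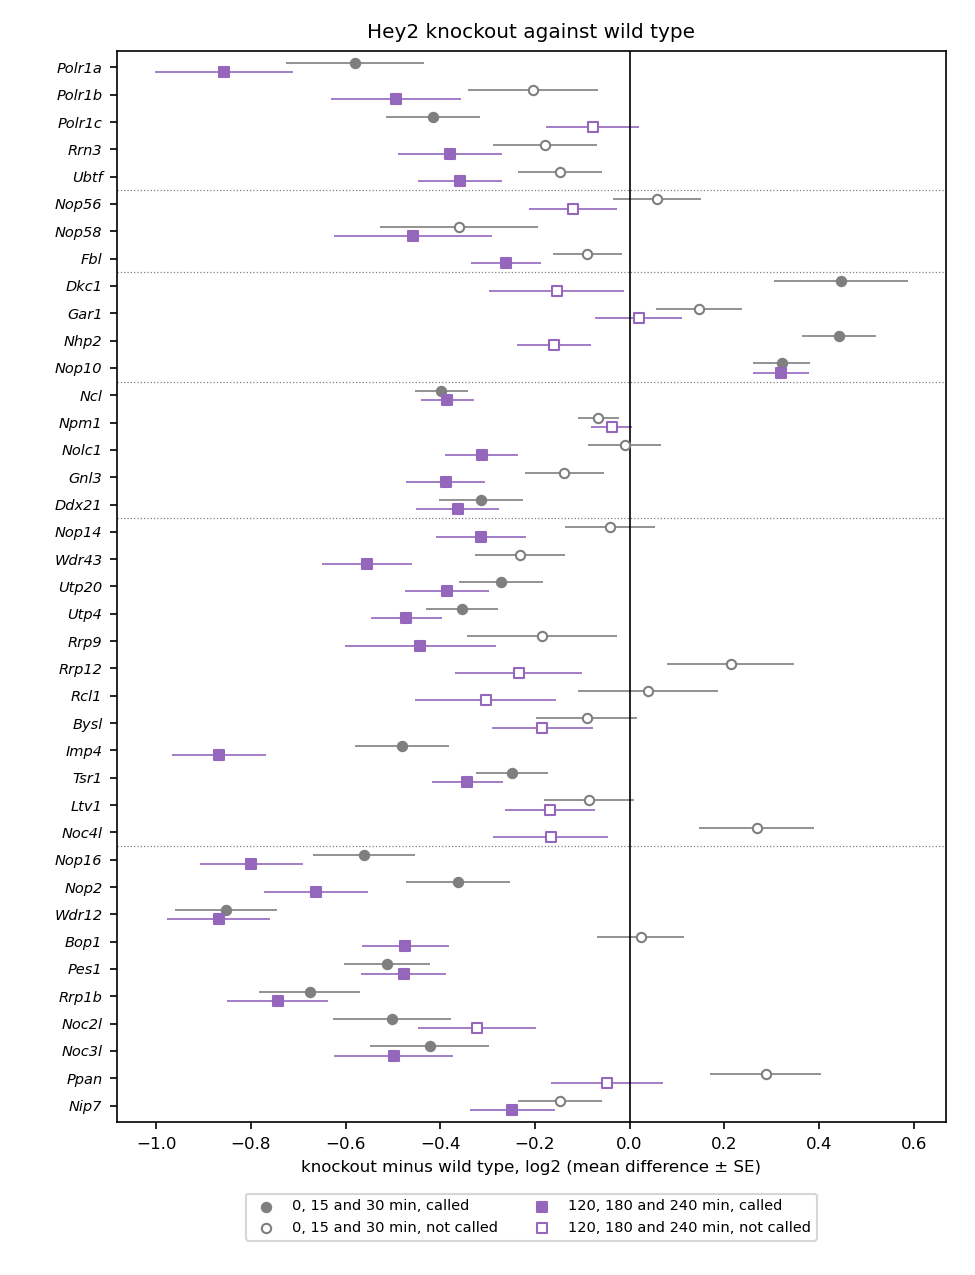
Knockout minus wild-type difference (log2 scale, mean with SE) of the 39 tested members at the early times (grey circles) and the late times (purple squares), in order of role, with filled symbols for called differences. Most points lie left of 0 on normalized arrays and the box H/ACA members lie to the right early, while at the deposited scaling the medians turn to 0.26 and 0.02.

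The interaction asked whether the rise itself differed between genotypes. The rise was larger in the wild type in 34 of 39 members, with a median difference of -0.18 for knockout minus wild type, against 0.02 for all genes. With all 16 arrays as labelled this direction turned: the rise was larger in the knockout in 38 of 39 members, with a median difference of 0.51 and 0 members called. In the 12-array fit 2 members passed the limma test, both with the smaller rise in the knockout, where 2.16% of all genes were called lower and 2.11% higher. Nhp2 rose less in the knockout by -0.60 (SE 0.11, limma adjusted p = 0.0081). Bop1 differed by -0.50 (SE 0.13, limma adjusted p = 0.049), close to the threshold. On its brightest probe set Dkc1 had a difference of similar size, -0.60 (SE 0.20, limma adjusted p = 0.12), with a wider error. Its further probe sets had smaller ones, -0.34 and -0.07, where those of Nhp2 and Bop1 had -0.57 and -0.57. Bop1 was called in none of the 6 fits that left out a time. With all 16 arrays as labelled the differences of Nhp2 and Bop1 turned positive, at 0.29 and 0.39. With the block for time left out, neither was called.

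Other genes of the pathway were counted for comparison, and most of them rose too. Of 115 tested genes among 120 listed that act in ribosome biogenesis but are not members, 69 rose and 3 fell in the wild type and 59 rose and 0 fell in the knockout, with medians of 0.61 and 0.56. With all 16 arrays as labelled, 0 of the 115 were called in the wild type and 1 was called higher in the knockout, with medians of 0.18 and 0.67. In the 12-array fit Imp3, Nol7 and C1d were the 3 that fell. Among other large subunit factors 31 of 42 rose in the wild type and 27 in the knockout, led by Nle1 (1.76 and 1.14) and Lyar (1.68 and 1.22), while Rbm28 had -0.24 and -0.29 and was not called. Among other small subunit factors 23 of 39 rose in the wild type and 22 in the knockout, led by Nol10 (1.63 and 1.14) and Pwp2 (1.34 and 1.45), and Imp3, a partner of the member Imp4, had -0.42 and -0.39.

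Of 11 other polymerase I subunits and regulators, 6 rose in the wild type and 5 in the knockout, among them Rrp8 (1.89 and 1.31) and Taf1a, a subunit of the promoter selectivity factor (1.09 and 1.26). Ttf1, the terminator-binding factor, had -0.11 and -0.11. The RNA exosome, which trims ribosomal RNA ends, had 6 of 13 genes higher in the wild type and 4 in the knockout, with Dis3, its catalytic subunit, at 1.34 and 1.01, Exosc3 at 1.45 and 0.64, and C1d at -0.44 and -0.22. Of the snoRNP assembly factors, 3 of 10 rose in the wild type and 1 in the knockout, with Ruvbl2 at 1.17 and 0.61, Nufip1 at 0.92 and 0.67 and Nop53 at -0.22 and -0.31. Between genotypes, 48 of the 115 were lower and 6 higher in the knockout early, and 62 lower and 5 higher late, with medians of -0.18 and -0.33, on normalized arrays. As labelled, with all 16 arrays, 26 were lower and 2 higher early, and 6 lower and 3 higher late. The 5 that were higher late in the 12-array fit were Gnl3l, Las1l, Polr1d, Znhit6 and Exosc9. In the interaction Mphosph6, an exosome cofactor, was the only call, at -0.63 (SE 0.16, limma adjusted p = 0.046).

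Cytosolic ribosomal protein genes, whose products the members assemble, mostly were not called. Of 79 listed, 43 had a tested probe set of their own. Of these, 3 rose and 4 fell in the wild type and 2 rose and 0 fell in the knockout, with medians of 0.01 and 0.00 against 1.21 and 0.998 for the members. Rpl12 and Rps25 rose in both genotypes, by 1.32 and 0.66 in the wild type and 1.47 and 0.60 in the knockout, and Rpl7a by 0.14 in the wild type. Rpl27a, Rpl37, Rps20 and Rps28 were the 4 that fell. Between genotypes 6 were higher and 4 lower in the knockout early, and 9 and 2 late. As labelled, with all 16 arrays, 0 were called in time in the wild type and 1 was called higher in the knockout, and between genotypes 1 was higher and 1 lower early, and 4 and 0 late. The difference between the lists was not tested.

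**Figure D5:**
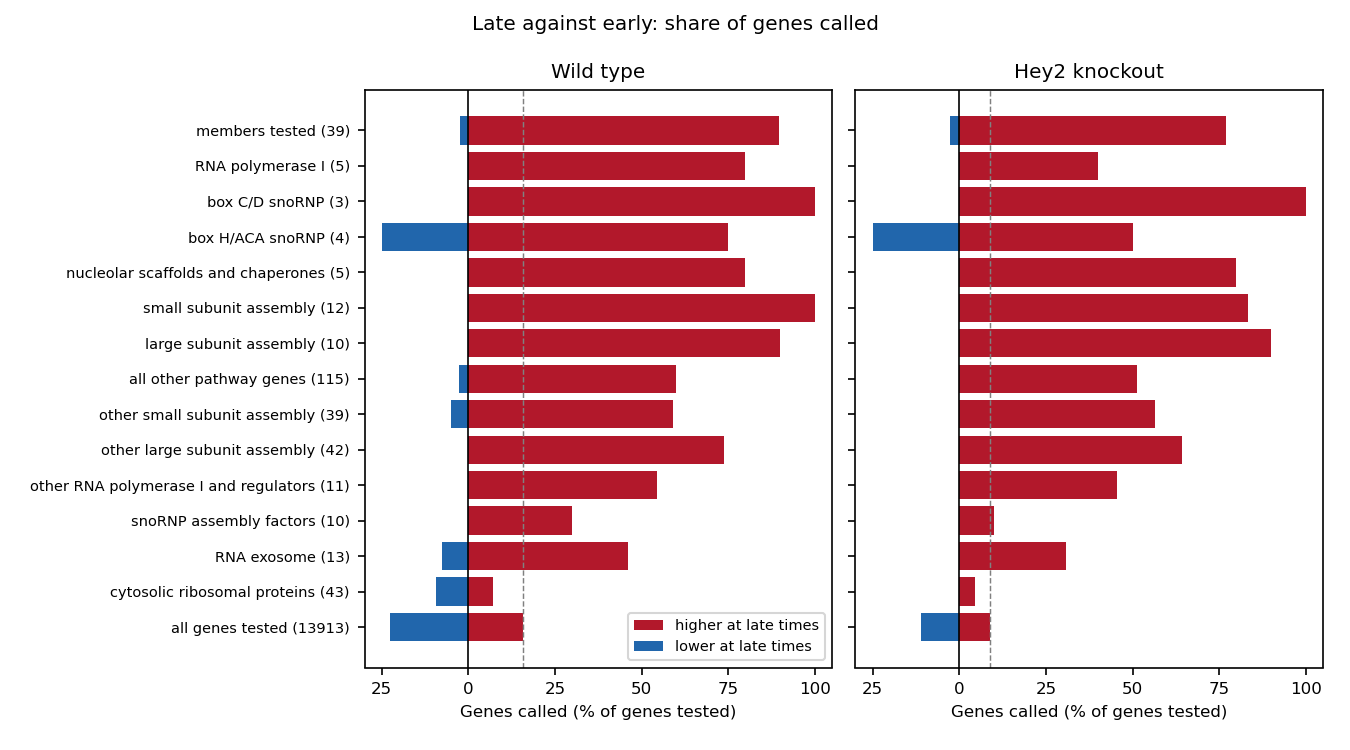
Share of genes called higher (red, right of 0) or lower (blue, left of 0) late against early, in percent of the genes tested in each list, for the wild type (left) and the knockout (right), with the dashed line at the share of all genes called higher. Member groups and most other pathway groups exceed the line (15.7% and 8.95%), and the 43 ribosomal protein genes do not.

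Several members were measured by more than 1 probe set. For 25 members 35 further probe sets were tested, and they had the sign of the brightest one in 33 cases in the wild-type time comparison, 34 in the knockout, 24 between genotypes early and 31 late. A further probe set pointed against a called one for Ncl in the knockout time comparison (-0.26 against 0.40), on the dimmest of its 5. Between genotypes this held for Ncl (0.57), Nop16 (0.07) and Polr1a (0.23) early and for Polr1a (0.52) and Ubtf (0.37) late, each on a dimmer probe set whose own unadjusted limma p was 0.19 or more.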

How the data were processed

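RNA was measured on 16 Affymetrix arrays, 8 per genotype, 1 for each time. The submitters' processing notes name MAS5 as the tool behind the deposited values, which are linear signal intensities for 45101 probe sets. Its version and any scaling target are not stated in what was used here. Of these, 34945 have 1 gene symbol in the platform annotation, 932 several, 9160 none and 64 are controls. By gene identifier, 34741 matched RefSeq genes of GRCm38.p6, and 0 symbols changed. The annotation can be old.

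Arrays were quantile normalized, the offset of 4.856 (the 20th percentile) was added, and log2 was taken. A signal above 16 (the 40th percentile) in 3 or more arrays was required. The brightest such probe set stood for a gene, giving 13913 genes, or 14299 with all 16 arrays, and only probe sets naming a single gene were tested. Models were fitted in R 4.3.3 (limma 3.58.1) with the variance following the intensity and Benjamini-Hochberg adjustment over all genes tested. Late against early was fitted on 4 cells of genotype and phase (12 arrays, 8 residual degrees of freedom). Genotypes and the interaction were fitted with the 6 times as a factor (4 residual degrees of freedom), so arrays of one time form a block that comes from the labels. Tables and promoters were handled in Python 3.11.15. The scripts were tested on simulated data.

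Members, gene lists, tests and the choice of arrays were made with earlier results of these data known. Values on every array were given for the members with the largest and the smallest mean rise in each role and for those that fell or passed the interaction test. From each class of other pathway genes the 2 largest and the smallest rise were named, and Myc was added. Further genes were named where a count was 5 or fewer, after their values were seen. Alternatives covered scaling, offset, filter, probe sets, the variance trend, all 16 arrays, each time left out and the time factor.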

Additional observations from a re-analysis of the deposited data

Results flagged for a closer look

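The rise from early to late times differed between the genotypes for 2 members by the limma interaction test. For Nhp2 the knockout minus wild-type difference of the rise was -0.60 (SE 0.11, limma adjusted p = 0.0081), and for Bop1 it was -0.50 (SE 0.13, limma adjusted p = 0.049). Nhp2 kept its call in 12 of 16 alternatives, with limma adjusted p from 0.0064 to 1, and Bop1 in 3 of 16, with limma adjusted p from 0.033 to 1. Without the 60 and 480 min arrays the size ran from -0.73 to -0.52 for Nhp2 and from -0.60 to -0.44 for Bop1, and with all 16 arrays as labelled both were positive. What lies behind either difference was not tested.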

How the results depend on the processing

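Counts of risen members stayed within 1.5 times of 35 (wild type) and 30 (knockout) under the changes of offset, filter, probe sets, trend and time left out, and under one trimmed mean per array. At the deposited scaling the knockout count was 9, the genotype counts were 0 early and 0 late and the interaction count 0. The medians there were 1.54 and 1.25 for the rise and 0.26 and 0.016 between genotypes, while all genes shifted by 0.16, 0.15, 0.40 and 0.37, and the called share of all genes that was higher went from 41%, 45%, 50.2% and 52.3% to 76.2%, 89%, 86.2% and 88%. Members whose called genotype difference turned there were, early, Polr1c (0.086), Ddx21 (0.19), Utp20 (0.22), Utp4 (0.13), Imp4 (0.030), Tsr1 (0.26), Nop2 (0.14) and Noc3l (0.031), and late, Rrn3 (0.0093), Ubtf (0.016), Fbl (0.12), Nolc1 (0.072), Ddx21 (0.0061), Nop14 (0.079), Tsr1 (0.051) and Nip7 (0.13). Nop10 turned to 0.11 and 0.028 in time.

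With all 16 arrays as labelled the counts were 0, 1, 3, 0 and 0 (wild-type rise, knockout rise, early, late, interaction), with medians of 0.49 for the wild-type rise, -0.48 early, -0.050 late and 0.51 for the interaction, whose direction turned (38 of 39 members positive). Those that turned were Polr1b (0.091), Fbl (0.060), Rrp9 (0.19) and Nip7 (0.094) late, Dkc1 (-0.057) and Nhp2 (-0.056) early, and Nhp2 (0.29) and Bop1 (0.39) in the interaction. The mean of probe sets turned Ubtf late (0.0064). Without the time factor 9 members were lower early, 14 late and 0 in the interaction. The interaction count was 0 without the trend and 1 with the mean of probe sets, with no filter or with the offset divided by 3. Leaving out a time gave 9 to 15 lower early, 14 to 25 late, 1 to 2 in the interaction and a wild-type median of 1.04 to 1.40. The cause of these changes was not tested.

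Counts over all genes moved by over 1.5 times as well: at the deposited scaling to 527 and 202 higher in time (from 2186 and 1245) and 77 and 72 lower between genotypes (from 2511 and 2435), and for the interaction from 593 to 0 there, 278 with the mean of probe sets, 2 without the trend and 108 without the time factor. Leaving out a time gave 787 to 1605 higher in the knockout and 237 to 690 interactions. With all arrays as labelled these counts were 179, 50, 1310, 1173 and 2. Signal over background limits dim probe sets, and 1 array for each genotype and time means that isolates and genotype cannot be told apart.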
